A study of Mus musculus with 14 samples.

Results

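This account follows 9 genes that mark microglia, the resident macrophages of the brain: Tmem119, P2ry12, P2ry13, Gpr34, Fcrls, Olfml3, Siglech, Sall1 and Trem2. They were picked by name among the 17178 gene symbols that could be given to probes of the array. The rule uses no measured value, but earlier results of these data were known when it was set. Each probe was assigned to its gene through the transcript identifier that the array files give for it. All 9 genes had a probe (11 probes in all, as Fcrls and Trem2 have 2 probes each). All 9 passed the filter on dim probes that left 21969 features for testing, Siglech through brain arrays alone.

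RNA from sorted macrophages and monocytes of male YARG mice, aged 12 to 16 weeks, was hybridised to 14 one-colour Agilent arrays. In YARG mice a fluorescent protein reports transcription of the arginase-1 gene, Arg1, and animals of every group had this allele. The groups were Arg1+ brain macrophages 1 day after traumatic brain injury, or TBI (n = 4), Arg1- brain macrophages 1 day after TBI (n = 4), blood monocytes 1 day after TBI (n = 3) and blood monocytes of normal mice (n = 3). TBI was a controlled cortical impact, in which a piston strikes the exposed cortex. Cells were stained for CD45, CD11b, Ly6G and F4/80 and with a dead-cell dye before sorting. The gates are not given in the sources used here, and no gate between resident microglia and macrophages that entered from blood is stated. No array of uninjured brain, of sham-operated animals or of microglia sorted as such was analysed here, nor was the remaining array that the design gives each blood group. Nothing says whether replicates came from separate animals, so p-values measure only the spread between these samples, part of which may be technical.

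Microglia arise from early yolk sac precursors, persist in the brain without much input from blood, and survey the tissue through nucleotide and lipid receptors. Transforming growth factor beta and the transcription factor Sall1 are known to keep up their signature, and P2ry12, an ADP receptor that steers their processes to damage, is known to fall when they are activated. Blood monocytes that enter an injured brain start without most of the signature, so the 9 genes are commonly used to set resident cells against newcomers. A sorted population is a mixture, and in bulk RNA fewer cells of a type and less RNA per cell cannot be told apart.

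The promoters of 4 genes are printed because the results below turn on them: Fcrls and Olfml3 had the largest differences between brain and blood, and the neighbouring ADP receptor genes P2ry12 and P2ry13 differed from each other. Each run is the 250 bases before the RefSeq transcript start on GRCm38.p6, written 5′ to 3′ on the gene's own strand, here the minus strand of chromosome 3. Capitals mark GAGGAA, the core of the PU box bound by the macrophage factor PU.1, searched on both strands. The windows are chr3:87263525-87263774 for Fcrls, chr3:103738002-103738251 for Olfml3, chr3:59210883-59211132 for P2ry13 and chr3:59262986-59263235 for P2ry12.
Fcrls: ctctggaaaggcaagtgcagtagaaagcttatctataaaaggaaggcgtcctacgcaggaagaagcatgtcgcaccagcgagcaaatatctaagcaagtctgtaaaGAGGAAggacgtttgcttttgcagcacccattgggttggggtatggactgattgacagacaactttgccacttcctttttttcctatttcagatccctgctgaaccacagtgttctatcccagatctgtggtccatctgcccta
Olfml3: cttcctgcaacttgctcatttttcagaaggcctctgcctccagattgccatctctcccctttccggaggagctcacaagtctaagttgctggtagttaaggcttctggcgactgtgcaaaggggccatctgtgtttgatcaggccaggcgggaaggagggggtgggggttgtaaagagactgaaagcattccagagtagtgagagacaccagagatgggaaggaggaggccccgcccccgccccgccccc
P2ry13: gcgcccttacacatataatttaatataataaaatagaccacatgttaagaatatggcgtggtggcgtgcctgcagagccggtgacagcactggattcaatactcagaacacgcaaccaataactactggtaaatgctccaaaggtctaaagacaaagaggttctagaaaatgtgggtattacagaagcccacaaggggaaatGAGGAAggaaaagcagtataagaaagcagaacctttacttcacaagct
P2ry12: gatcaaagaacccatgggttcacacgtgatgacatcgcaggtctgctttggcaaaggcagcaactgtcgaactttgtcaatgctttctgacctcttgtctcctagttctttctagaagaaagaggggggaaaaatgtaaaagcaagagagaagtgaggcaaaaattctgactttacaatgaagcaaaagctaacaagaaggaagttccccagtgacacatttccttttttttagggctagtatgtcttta
RefSeq windows were found for 7 of the 9 genes (9 windows, 3 of them of Sall1), and Tmem119 and Gpr34 had none in the table used. GAGGAA was present in 3 of these 9 windows, at 144 bases before the start of Fcrls, 48 before that of P2ry13 and 40 before that of Trem2, where it lies on the other strand. Among all 32851 windows of the same length 23.3% held it. A match is a description of these letters and not a binding site, and its absence from the Olfml3 and P2ry12 windows says only that these letters are not there.

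Levels are given as log2 of the processed signal over the 75th percentile of the same array, so that 0 is the brightness of the 75th percentile and each unit is a doubling. The lowest possible value is -4.32. A level marked as not well above background is one that the scanner software did not separate from its local background. Levels are compared between groups for 1 probe at a time, since probes differ in brightness for reasons other than RNA amount. The 75th percentile itself lay between 119.4 and 418.5 intensity units, 50.4% to 68.69% of spots per array were well above background, and no spot was saturated. CD11b (Itgam) averaged 4.49, 4.34, 4.02 and 3.98 in Arg1+ brain, Arg1- brain, post-TBI blood and normal blood. F4/80 (Adgre1) averaged 3.85, 3.23, 4.19 and 3.93 in the same order and was called lower in Arg1- cells than in post-TBI blood (-0.96, limma adjusted p = 0.0014). CD45 (Ptprc), which all white blood cells carry, averaged 3.26 in Arg1+ and 3.98 in Arg1- brain cells and 5.01 in post-TBI blood. It was called lower in brain than in that blood (-1.75 and -1.03, limma adjusted p = 1.79e-06 and 0.000381) and lower in Arg1+ than in Arg1- cells (-0.71, adjusted p = 0.0192). All 3 genes were well above background on every array. Arg1, the gene behind the sort of brain cells, averaged 6.41 in Arg1+ cells (3 usable arrays), 3.16 in Arg1- cells and -3.48 in post-TBI monocytes.

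Both brain populations carried far more RNA of most signature genes than post-TBI blood monocytes. Against blood, 8 of the 9 genes were called higher in Arg1+ brain cells and 7 of the 9 in Arg1- brain cells. P2ry12 was called in neither comparison and Gpr34 in Arg1+ cells alone. Both counts include Siglech, which passed the filter on dim probes only because brain arrays detected it. Its blood arrays all lay at the lowest possible level, so its calls are not independent of that filter. A gene was called at a Benjamini-Hochberg adjusted p under 0.05 in limma's moderated test over all features. Of all 21969 features, 19.9% were called higher and 20% lower in Arg1+ brain cells against post-TBI blood, and 17% and 16.4% in Arg1- brain cells. The median log2 difference of the 9 genes was 2.22 in Arg1+ and 1.88 in Arg1- cells, where the median of all features was -0.03 and -0.02. Both comparisons use the same 3 post-TBI blood arrays, so their values are set side by side and are not independent of each other.

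**Figure D1:**
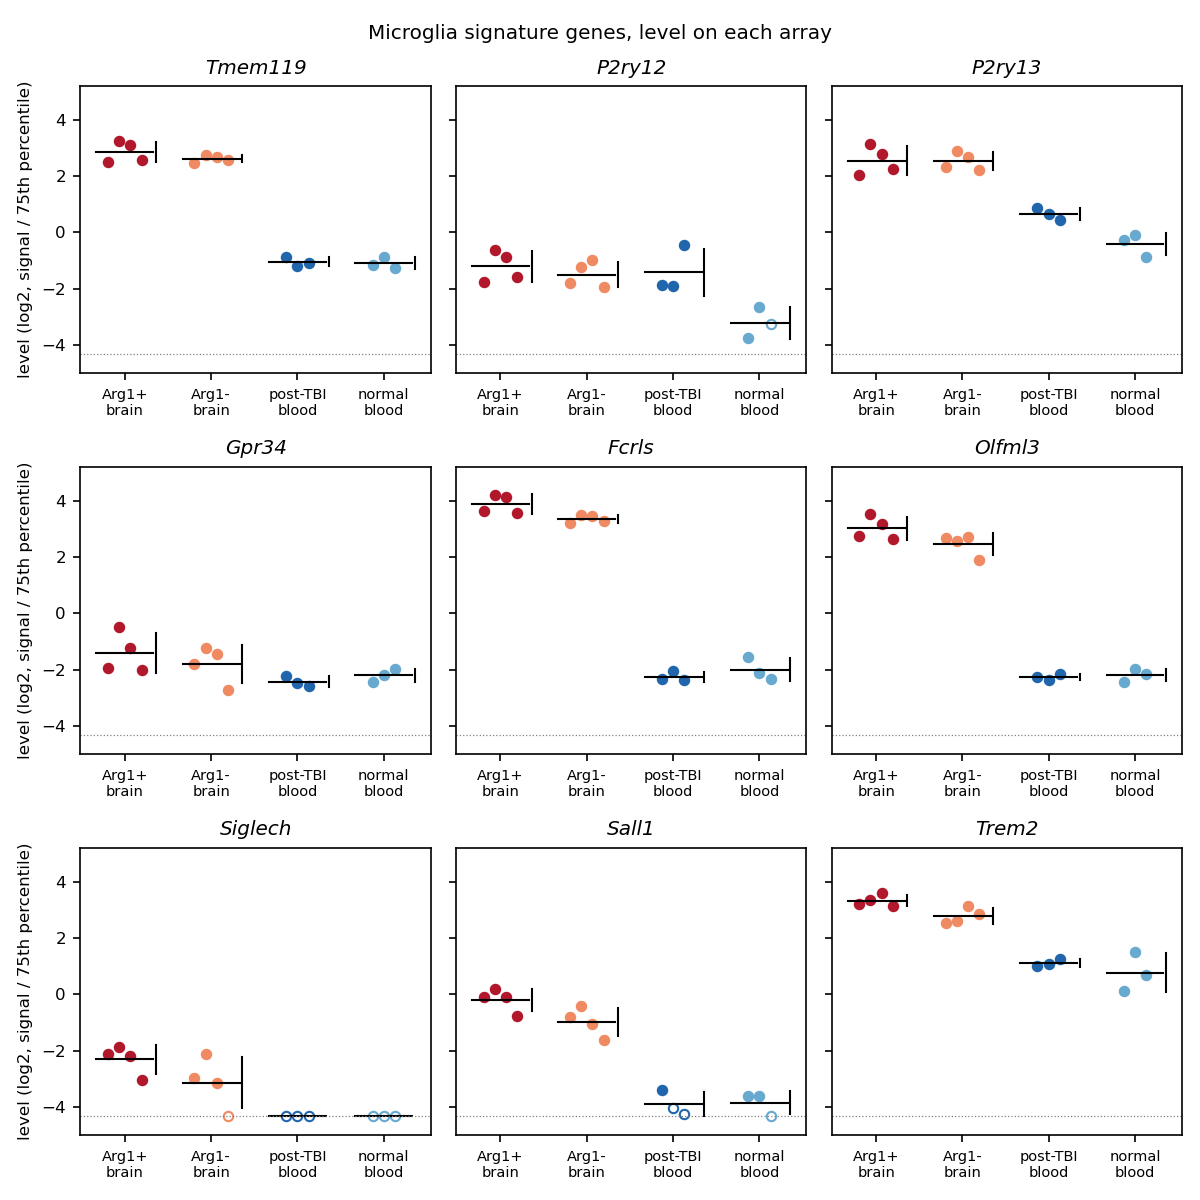
Level of each signature gene (vertical axis, log2 of the processed signal over the array's 75th percentile) on the 14 arrays, grouped on the horizontal axis. Each point is an array, in order of replicate number. Open points were not well above background, horizontal lines are group means, vertical bars are ± 1 SD and the dotted line is the lowest possible level, -4.32. For Tmem119, P2ry13, Fcrls, Olfml3, Sall1 and Trem2 all 8 brain arrays lie above all 6 blood arrays.

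**Figure D2:**
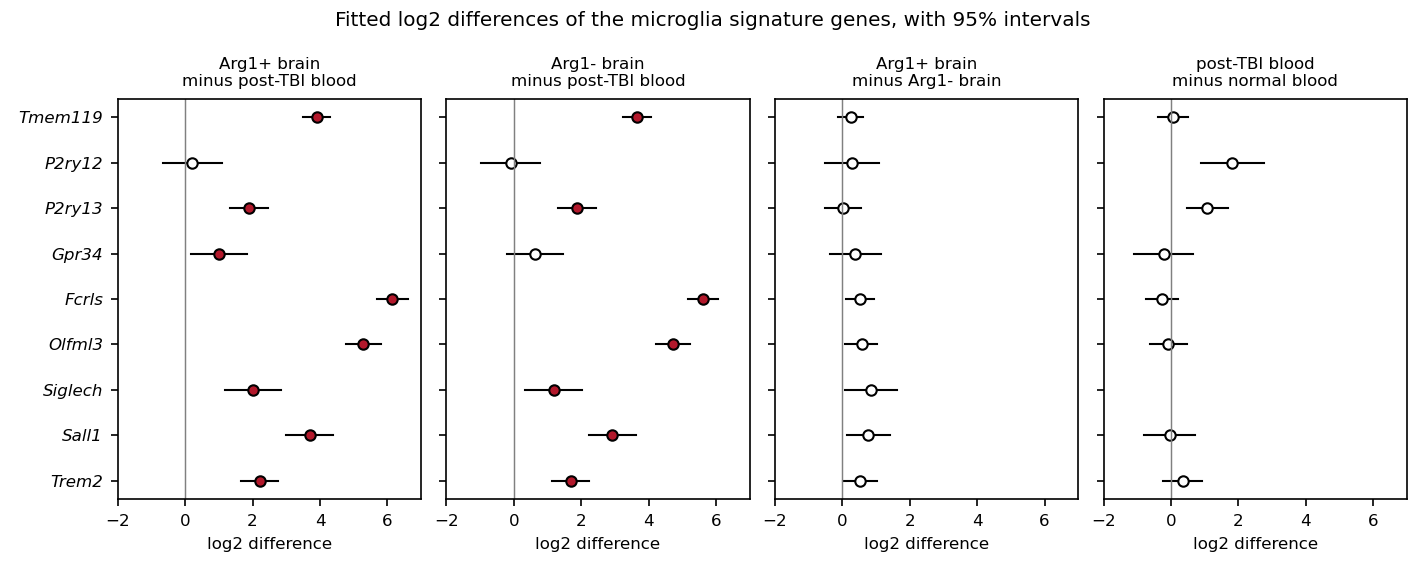
Fitted log2 differences (horizontal axis) of each signature gene in the 4 comparisons, with 95% confidence intervals as lines. Filled points passed an adjusted p of 0.05, and Siglech has no point in the blood comparison because no blood array was well above background. Fcrls leads both brain-blood panels at 6.15 and 5.62, and no point is filled in either of the other panels.

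Tmem119 encodes a transmembrane protein by which microglia are commonly told from other brain macrophages. Its level in Arg1+ brain cells was 2.51, 3.24, 3.09 and 2.57 (replicates 1 to 4), and in Arg1- brain cells 2.46, 2.75, 2.68 and 2.58. In blood it was -0.87, -1.19 and -1.08 after TBI (replicates 1, 3 and 4) and -1.17, -0.87 and -1.28 in normal mice (replicates 2, 3 and 4). The brain arrays thus formed a tight upper band and the blood arrays a lower one, 3.32 apart at their nearest. Tmem119 was higher by 3.90 ± 0.19 (SE) in Arg1+ cells (14.9-fold, adjusted p = 8.08e-10 in limma) and by 3.66 ± 0.19 in Arg1- cells (12.6-fold, adjusted p = 3.19e-09) than in post-TBI blood. Within each of the 3 slides that held both groups the difference lay between 3.44 and 4.17 for Arg1+ and between 3.54 and 3.77 for Arg1- cells. In blood Tmem119 was well above background on all 6 arrays.

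The P2Y receptors of the list bind extracellular nucleotides, which damaged cells release. P2ry12 was at -1.75, -0.64, -0.86 and -1.58 in Arg1+ brain cells and at -1.81, -1.23, -1.0 and -1.96 in Arg1- brain cells. In post-TBI blood it was at -1.87, -1.92 and -0.45, within or above the range of the brain arrays, and in normal blood at -3.77, -2.65 and -3.26 (the last not well above background), below every other array. The differences from post-TBI blood were 0.21 (95% interval -0.67 to 1.08, adjusted p = 0.743 in limma) in Arg1+ and -0.09 (-0.96 to 0.79, adjusted p = 0.909) in Arg1- cells. The direction turned with single arrays, from -0.05 to 0.69 for Arg1+ and from -0.34 to 0.40 for Arg1- cells when 1 array was left out. Normal blood was not tested against brain.

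P2ry13, an ADP receptor encoded beside P2ry12, did separate brain from blood. It stood at 2.02, 3.14, 2.77 and 2.25 in Arg1+ brain cells and at 2.33, 2.89, 2.68 and 2.22 in Arg1- brain cells. Post-TBI blood had 0.85, 0.64 and 0.45, and normal blood -0.29, -0.11 and -0.87. The groups formed 3 steps without overlap, with both brain groups together on top, post-TBI blood next and normal blood lowest. The difference from post-TBI blood was 1.90 ± 0.27 in Arg1+ (3.73-fold, limma adjusted p = 4.14e-05) and 1.88 ± 0.27 in Arg1- cells (3.69-fold, adjusted p = 6.69e-05).

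Gpr34, a receptor for lysophosphatidylserine, was well above background on all 14 arrays, and its brain and blood arrays overlapped. It was at -1.94, -0.49, -1.23 and -2.01 in Arg1+ brain cells, at -1.79, -1.22, -1.45 and -2.73 in Arg1- brain cells, at -2.22, -2.47 and -2.59 in post-TBI blood and at -2.45, -2.20 and -1.97 in normal blood. Arg1+ replicate 2 stood highest, Arg1- replicate 4 lowest of all 14 arrays, and only Arg1+ cells kept clear of post-TBI blood. The difference was 1.01 ± 0.39 in Arg1+ cells (limma adjusted p = 0.05 as rounded, just under the threshold) and 0.62 ± 0.39 in Arg1- cells (adjusted p = 0.245). The call in Arg1+ cells was lost in 10 of the 14 fits that left out 1 array, with adjusted p up to 0.143, and held only without Arg1+ replicate 1 or 4 or Arg1- replicate 2 or 4. It was also lost under quantile normalization, without the filter on dim probes and with the replicate number as a block.

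Fcrls, an Fc receptor-like scavenger receptor, had the widest gap between brain and blood among the 9 genes. The probe that stands for it, the brighter on average, read 3.63, 4.22, 4.15 and 3.56 in Arg1+ brain cells and 3.22, 3.50, 3.45 and 3.27 in Arg1- brain cells. The blood arrays read -2.35, -2.06 and -2.38 after TBI and -1.56, -2.12 and -2.33 in normal mice, so that 4.78 parted the lowest brain array from the highest blood array. Fcrls was higher by 6.15 ± 0.21 in Arg1+ (71.1-fold, limma adjusted p = 1.82e-11) and by 5.62 ± 0.21 in Arg1- cells (49.3-fold, adjusted p = 8.45e-11). It ranked 29 and 23 from the top among the differences of all 21969 features. The other Fcrls probe, tested in a fit of all 27609 kept probes, gave 8.31 ± 0.21 and 8.06 ± 0.21, since it fell to -3.81, -4.32 and -4.32 in post-TBI blood, where 1 of 3 arrays was well above background. The size of the Fcrls difference therefore depends on the probe, and its direction and call do not.

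Siglech is a sialic acid-binding lectin that microglia share with plasmacytoid dendritic cells. It was at -2.11, -1.87, -2.18 and -3.06 in Arg1+ brain cells and at -2.98, -2.13, -3.15 and -4.32 in Arg1- brain cells, the last not well above background. All 6 blood arrays were at -4.32 and none was well above background, so only bounds on the fold can be given. Going by group means, Siglech was at least 4.05-fold higher in Arg1+ cells (limma adjusted p = 0.000757). In Arg1- cells it was at least 2.26-fold higher (limma adjusted p = 0.0309, 3 of 4 arrays measured). The 95% intervals of the log2 difference ran from 1.18 to 2.85 and from 0.34 to 2.01. In other settings on all arrays this difference was as low as 1.18 and 0.73, so smaller folds remain possible. These bounds, and those given below for other genes, set the brain mean against -4.32. This was the lowest possible level, set in the processing, and also the dimmest reading that cleared background on the blood arrays. The bounds take no account of the spread between arrays or of other settings. The p-values and intervals of Siglech use a spread pooled over all groups, to which blood arrays fixed at -4.32 add none. The call in Arg1- cells was lost in 6 of the 14 fits without 1 array (adjusted p up to 0.0834), namely without Arg1- replicate 1, 2 or 3 or without any of the 3 post-TBI blood arrays. It was also lost with normexp, without the filter on dim probes and with slide as a block (adjusted p up to 0.0806). Of 9 measured markers of plasmacytoid dendritic cells, 2 were called higher and 1 lower in Arg1+ cells against blood (all features: 19.9% and 20%). Their summed level was 22.2 to 25.7 in Arg1+ brain, 21.9 to 36.2 in Arg1- brain, 12.2 to 20.6 in post-TBI blood and 24.3 to 31.8 in normal blood, and each of the 9 was detected in every group. The part of such cells in the Siglech values was not tested.

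Trem2, a receptor for lipids and lipoproteins that signals through the adaptor Tyrobp, was present in blood and higher in brain. It was at 3.22, 3.34, 3.61 and 3.15 in Arg1+ brain cells, 2.54, 2.62, 3.15 and 2.85 in Arg1- brain cells, 1.00, 1.08 and 1.25 in post-TBI blood and 0.12, 1.50 and 0.68 in normal blood. All brain arrays stood above all blood arrays, by at least 1.04. Trem2 was higher by 2.22 ± 0.26 in Arg1+ (4.66-fold, limma adjusted p = 6.42e-06) and by 1.69 ± 0.26 in Arg1- cells (3.22-fold, adjusted p = 0.000128). The other probe gave 2.53 ± 0.18 and 1.56 ± 0.18.

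Olfml3 encodes a secreted glycoprotein of the extracellular matrix. It was at 2.74, 3.53, 3.19 and 2.65 in Arg1+ brain cells and at 2.66, 2.56, 2.72 and 1.89 in Arg1- brain cells. Blood read -2.28, -2.37 and -2.14 after TBI and -2.43, -1.99 and -2.14 in normal mice, a gap of 3.88 below the lowest brain array. The difference from post-TBI blood was 5.29 ± 0.24 in Arg1+ (39.1-fold, limma adjusted p = 3.49e-10) and 4.72 ± 0.24 in Arg1- cells (26.4-fold, adjusted p = 2.09e-09).

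Sall1, the zinc finger factor that maintains microglial identity, was detected on all 8 brain arrays. It was at -0.10, 0.18, -0.11 and -0.77 in Arg1+ brain cells and at -0.80, -0.42, -1.05 and -1.61 in Arg1- brain cells. Post-TBI blood read -3.40, -4.05 and -4.24 and normal blood -3.62, -3.62 and -4.32, with 1 and 2 of the 3 arrays well above background. Sall1 was higher by 3.70 ± 0.33 in Arg1+ (13-fold, limma adjusted p = 4.28e-07) and by 2.92 ± 0.33 in Arg1- cells (7.59-fold, adjusted p = 7.75e-06). Background correction by normexp brought these to 1.88 and 1.32, both still called, which is the lowest of any setting tried.

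Ordered by the difference from post-TBI blood, Arg1+ cells ran Fcrls, Olfml3, Tmem119, Sall1, Trem2, Siglech, P2ry13, Gpr34 and P2ry12. In that order the 95% intervals of Fcrls (5.70 to 6.60) and Olfml3 (4.78 to 5.80) overlapped, as did those of Tmem119 (3.49 to 4.31) and Sall1 (3.00 to 4.40) and those of Trem2 (1.67 to 2.76) and P2ry13 (1.33 to 2.47). Arg1- cells kept the first 4 places and had P2ry13 before Trem2. The value of Siglech is a bound on group means. Its 95% interval in Arg1+ cells (1.18 to 2.85) overlapped those of Trem2, P2ry13 and Gpr34 (0.18 to 1.83), so its place could be higher or lower.

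No signature gene passed limma's test between Arg1+ and Arg1- brain cells. The count of 0 of 9 stands against 2.14% of all features called higher and 2.9% called lower in Arg1+ cells. The difference was positive for all 9, where 50% of all features were positive, and 5 of the 9 had an unadjusted p under 0.05 (Fcrls, Olfml3, Siglech, Sall1 and Trem2), where 8.08% of features did so in the higher direction. For Siglech the fit pooled the spread of the brain arrays (SD 0.52 and 0.90) with blood arrays all fixed at -4.32 (SD 0.0). Its p-value therefore understates the spread between brain arrays. The median difference of the 9 was 0.53, against 0.00 for all features.

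Fcrls was higher by 0.53 ± 0.20 (1.44-fold, limma adjusted p = 0.154) and was the one gene whose 4 Arg1+ and 4 Arg1- arrays did not overlap, a state shared by 14.9% of all features. Olfml3 differed by 0.57 ± 0.22 (limma adjusted p = 0.184), Sall1 by 0.77 ± 0.30 (adjusted p = 0.182) and Siglech by 0.84 ± 0.36 (adjusted p = 0.234, with 1 Arg1- array not well above background). The other Fcrls probe differed by 0.25 ± 0.20 (limma adjusted p = 0.596 over all probes). Gpr34, P2ry12 and Tmem119 differed by 0.38, 0.29 and 0.24, within the spread of the arrays. P2ry13 differed by 0.02 (95% interval -0.51 to 0.54), with its sign turning under several settings.

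The probes of Trem2 differed in their call. The probe that stands for the gene differed by 0.53 ± 0.24 (limma adjusted p = 0.252 over genes), with Arg1- replicate 3 (3.15) at the level of the lowest Arg1+ array. The other probe read 3.14, 3.01, 3.59 and 3.16 in Arg1+ and 2.16, 2.09, 2.35 and 2.40 in Arg1- cells, which did not overlap. It differed by 0.98 ± 0.17, and in the fit of all probes, added after the values were seen, its adjusted p was 0.0032. Both probes were higher in Arg1+ cells, and whether Trem2 passes the threshold depends on which is taken.

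**Figure D3:**
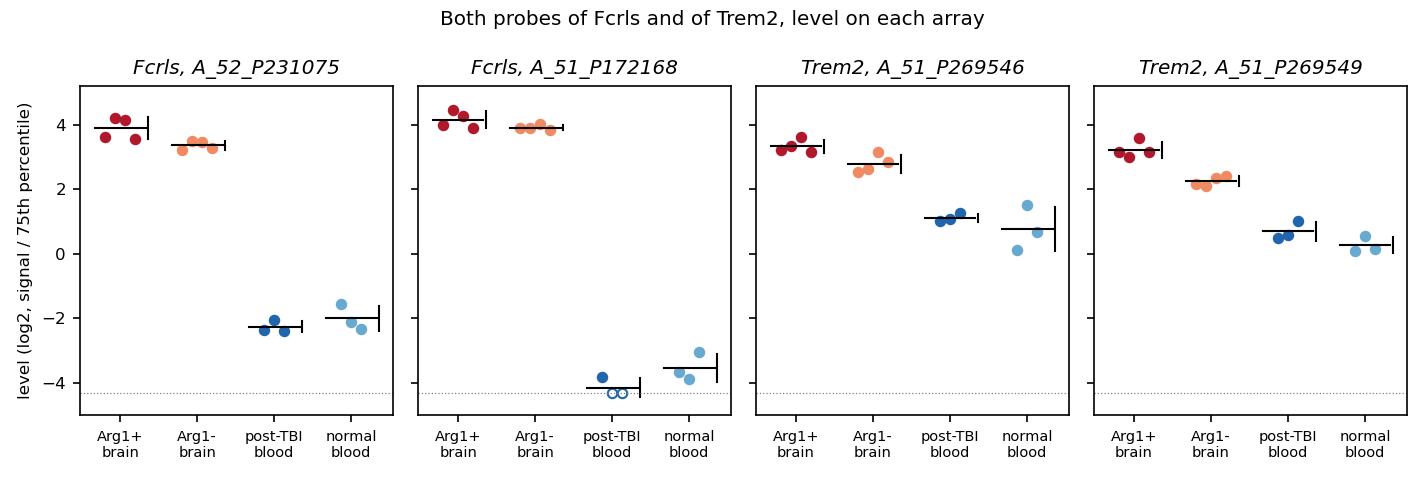
Level (vertical axis, log2 of the processed signal over the array's 75th percentile) of both probes of Fcrls and of Trem2 on each array, by group. Points, lines and bars are as in the plot of all 9 genes. The second Fcrls probe lies lower in blood than the first, and the second Trem2 probe separates Arg1+ (3.01 to 3.59) from Arg1- brain cells (2.09 to 2.40).

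Single arrays stood high or low for many genes at once. Arg1+ replicate 2 was the highest of its group for 8 of the 9 genes and Arg1+ replicate 4 the lowest for 6. In the Arg1- group replicate 2 was the highest for 6 and replicate 4 the lowest for 6. The arrays sat on 4 slides, of which slides 1 to 3 held all 4 groups and slide 4 held Arg1+ replicate 2 and Arg1- replicate 3 alone. Within slides, Arg1+ minus Arg1- was positive on all 4 slides for Fcrls (0.06 to 0.93), Olfml3 (0.09 to 0.84) and Trem2 (0.18 to 1.06). Sall1 and Siglech were positive on 3 of 4, with -0.34 and -0.92 on slide 3. With slide as a block Olfml3 reached an adjusted p of 0.0545, and the other 8 stayed between 0.133 and 0.988.

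Other cell types also differed between the brain groups. The summed level of 11 measured neutrophil markers was 10.2 to 20.9 in Arg1+ and 30.5 to 138 in Arg1- cells, with 7 called lower and 1 higher in Arg1+ cells. The sum of 5 measured dendritic cell markers was 0.322 to 0.448 in Arg1+ and 3.71 to 5.38 in Arg1- cells, with 4 called lower. For both lists, the sum on every Arg1+ array lay below that on every Arg1- array. Markers of border macrophages, which line the meninges and vessels, summed to 56.1 to 70.0 in Arg1+ and 35.4 to 45.2 in Arg1- cells, and 2 of 8 were called higher. Among all features, 2.14% were called higher and 2.9% lower in Arg1+ than in Arg1- cells. The sum of the 9 signature genes themselves was 38.9 to 61.3 in Arg1+ and 32.0 to 40.7 in Arg1- cells. The part of these other cells in the signature differences was not tested.

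The same border macrophage markers also rose from blood to brain. Of 8 measured, 7 were called higher in Arg1+ and 6 in Arg1- cells against post-TBI blood, where their sum was 2.86 to 5.38. Among all features, 19.9% and 17% were called higher in these comparisons. Ms4a7, one of them, was higher by 4.53 and 4.12, and the mannose receptor Mrc1 by 4.79 and 3.34. Lyve1, a defining marker of such cells, cleared background on 1 Arg1+ array, 2 Arg1- arrays and no blood array, and was not called. Astrocyte markers summed to 3.46 to 6.57 in brain and 1.44 to 2.46 in blood. Of 8 measured, 5 were called higher in Arg1+ and 2 in Arg1- cells against post-TBI blood, and none lower. Slc1a2 and Gja1 were not well above background on any blood array. Aldh1l1 averaged -0.9 and -0.86 in brain, slightly below post-TBI (-0.74) and normal blood (-0.64). The part of border macrophages and astrocytes in the signature values was not tested.

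Genes outside the 9 that are also known from microglia followed them in part. Of 22 measured, 15 were called higher and 2 lower in Arg1+ cells against post-TBI blood (all features: 19.9% and 20%). In Arg1- cells 16 and 2 were called (all features: 17% and 16.4%). The median differences of the 22 were 2.32 and 1.51. The complement gene C1qa was higher by 6.60 and 6.28. The efferocytosis receptor Mertk averaged 2.41 and 1.73 in brain and was called higher there, but 1 of 3 post-TBI blood arrays was well above background (mean -4.17, near the lowest possible level), and no size is given for its difference. The transporters Slco2b1 (at least 28.0-fold and 21.9-fold) and Slc2a5 (at least 11.0-fold and 6.33-fold) were not well above background on any post-TBI blood array. The fractalkine receptor Cx3cr1, which patrolling blood monocytes carry as well, was lower in brain, by -1.32 (limma adjusted p = 0.000585) and -0.90 (adjusted p = 0.0144). The latter call was lost without Arg1- replicate 1 or normal blood replicate 2 or 4, with adjusted p up to 0.0685. Csf1r, the receptor for the survival factor of the whole lineage, differed by -0.38 and -0.51 and was not called. Between the brain groups, 2 of the 22 were called higher in Arg1+ cells, where 2.14% of all features were. They were the leukotriene enzyme Ltc4s, by 1.30, and Mertk, by 0.68. The call of Ltc4s was lost after normexp background correction (adjusted p = 0.0582). The call of Mertk held in 4 of the 14 fits without 1 array, namely without Arg1+ replicate 1, Arg1- replicate 1 or post-TBI blood replicate 1 or 4. It was also lost with normexp, quantile normalization, a floor of 0.01 and the replicate block (adjusted p up to 0.376).

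Factors and cytokines that set microglial identity went both ways. Of 17 measured, 6 were called higher and 3 lower in Arg1+ cells, and 5 and 3 in Arg1- cells. Over all features, 19.9% were called higher and 20% lower in Arg1+ cells, and 17% and 16.4% in Arg1- cells. The macrophage factor Maf was higher in brain (2.90 and 2.35). Mef2c (-1.99 and -1.31) and the transforming growth factor beta mediator Smad4 (-0.81 and -0.74) were lower. Spi1, which encodes PU.1, differed by -0.08 and -0.04 and was not called. Sall3, a relative of Sall1, was at least 4.04-fold higher in Arg1+ and at least 2.09-fold higher in Arg1- cells, the latter lost without Arg1- replicate 2 or 3 or post-TBI blood replicate 3 or 4 (adjusted p up to 0.0636), and with normexp or no filter on dim probes (up to 0.11). None of the 17 was called between the brain groups, where 2.14% of all features were called higher and 2.9% lower.

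Partners of Trem2 and genes of the microglial state that depends on it were called higher in brain more often than lower. Of 16 measured, 10 were called higher and 2 lower in Arg1+ cells (all features: 19.9% and 20%). In Arg1- cells 8 and 1 were called (all features: 17% and 16.4%), and the other 7 were not. Tyrobp, the adaptor itself, differed by 0.13 and -0.02 and was not called, while Hcst, the related adaptor, was lower by -0.86 and -1.13. Gpnmb was higher by 8.89 and 7.76. Osteopontin, Spp1, averaged 7.65 and 6.05 in brain and was called higher there, with 1 of 3 post-TBI blood arrays well above background (mean -4.13), and no size is given for it either. Between the brain groups 3 were called higher in Arg1+ cells (Spp1 by 1.60, Cd9 by 1.28, Ctsl by 1.19), where 2.14% of all features were. Another 3 were called lower (Cst7 by -1.72, Axl by -1.57, Itgax by -1.40), where 2.9% were. Itgax is also a marker of dendritic cells. The call of Cst7 was lost in 6 of the 14 fits without 1 array, those without Arg1+ replicate 1, 2 or 4 or Arg1- replicate 2, 3 or 4, and with normexp or no filter on dim probes (adjusted p up to 0.117).

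Among the nucleotide receptors and enzymes beside P2ry12 and P2ry13, 6 of 15 were called higher and 3 lower in Arg1+ cells against blood, and 6 and 1 in Arg1- cells. These counts stand beside 19.9% of all features higher and 20% lower in Arg1+ cells, and 17% and 16.4% in Arg1- cells. Nt5e, the enzyme CD73 that makes adenosine, was at least 84.8-fold and 40.8-fold higher. P2ry2, a receptor for ATP and UTP, was higher by 3.68 and 3.05, and P2ry6, a receptor for UDP, by 1.16 and 1.00. P2ry14, a close relative of P2ry12 and P2ry13, differed by -1.36 (limma adjusted p = 0.101) and -0.45 and was not called. Gpr171, another relative, was higher by 2.19 and 4.48 and was lower by -2.29 in Arg1+ than in Arg1- cells, so members of this receptor cluster did not move as a block.

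Other relatives of the 9 genes were called in both directions. Of 18 measured, 4 were called higher and 7 lower in Arg1+ cells against blood (all features: 19.9% and 20%). In Arg1- cells 4 and 6 were called (all features: 17% and 16.4%). Trem3 (-3.02 and -2.05) and Treml4 (-5.84 and -4.59) were lower in brain, opposite to Trem2. Trem1, the amplifier of inflammatory signals, differed by -0.55 and 0.54 and was not called against blood. In Arg1+ against Arg1- cells, 2 of the 18 were called higher and 7 lower, where 2.14% and 2.9% of all features were. Trem1 was among those called lower (mean 2.18 against 3.28). Its call was lost in 8 of the 14 fits without 1 array (limma adjusted p up to 0.172), and with no filter on dim probes or no intensity trend. Olfml2b was higher by 4.46 and 2.77, in the direction of Olfml3.

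Most genes of blood monocytes ran against the signature. Of 18 measured, 14 were called lower and 2 higher in Arg1+ cells (all features: 20% and 19.9%). In Arg1- cells 12 and 2 were called (all features: 16.4% and 17%). The median differences of the 18 were -2.35 and -1.56. Ly6c2 was lower by -2.02 and -1.0, and the chemokine receptor Ccr2 by -1.37 in Arg1+ cells, where in Arg1- cells it differed by -0.37 and was not called. Ace (-7.09 and -4.75) and Cd300e (-6.55 and -5.23) differed most. The 2 called higher were Fn1 (mean 8.21 and 7.56 in brain, 6.45 in post-TBI blood) and Anxa2 (4.6 and 4.48, against 3.71). Both had 2 usable post-TBI blood arrays. In Arg1- cells both calls were lost with the replicate block. That of Fn1 was also lost without Arg1- replicate 2 and without the filter on dim probes. Vcan averaged 3.61 and 3.67 in brain and 3.67 in post-TBI blood. Between the brain groups 9 of the 18 were called lower in Arg1+ cells and none higher, beside none of the 9 signature genes called. Among all features 2.9% were called lower and 2.14% higher.

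**Figure D4:**
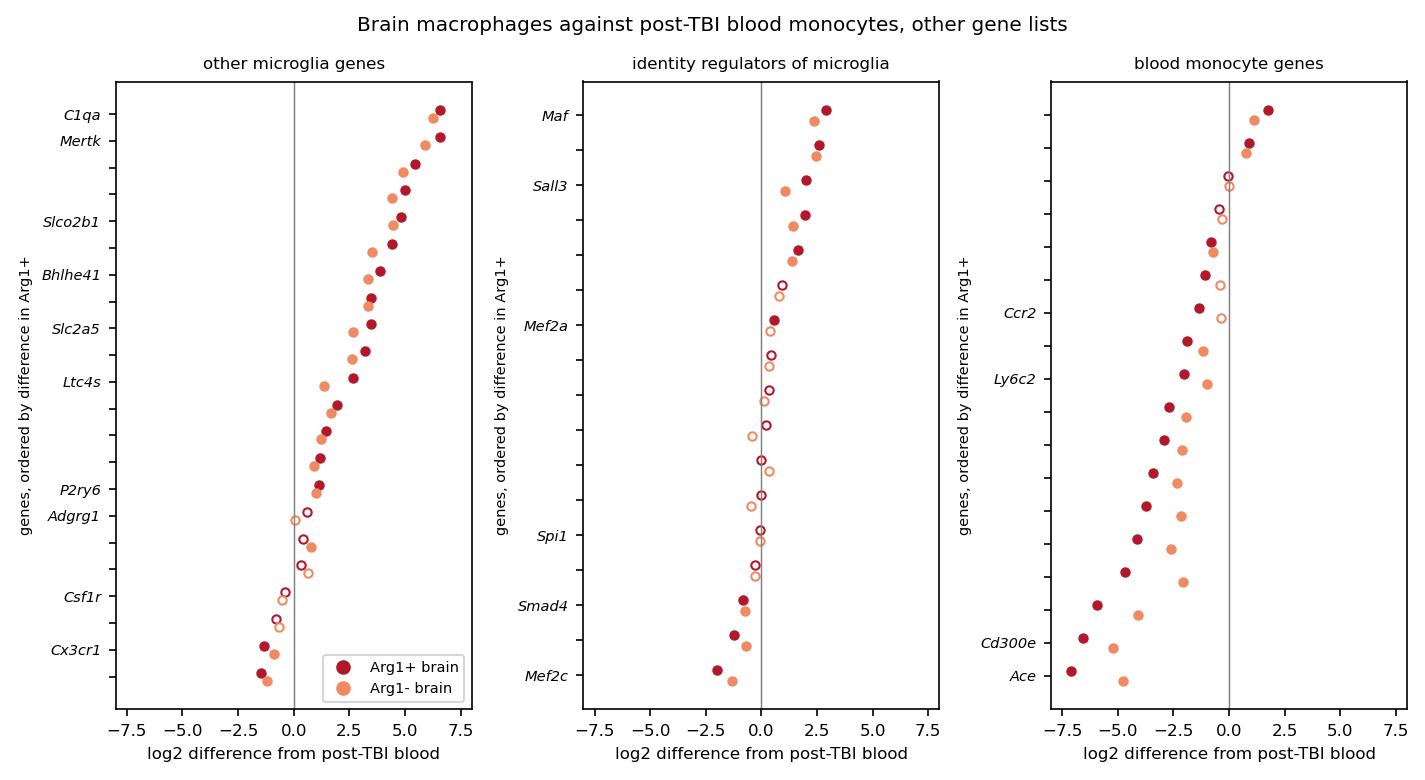
Fitted log2 differences from post-TBI blood (horizontal axis) of other microglia genes, identity regulators and blood monocyte genes, for Arg1+ and Arg1- brain cells. Each row is 1 gene, with names for some of those named in the text. Filled points passed an adjusted p of 0.05. Of the microglia genes 15 and 16 are filled above 0, of the monocyte genes 14 and 12 below it.

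No signature gene passed limma's test between post-TBI and normal blood monocytes. The count of 0 of 9 stands beside 0.109% of all features called higher and 0.041% called lower (72.7% of the calls higher, 60.0% with the authors' deposited table). The share of calls that were higher was 47.8% without normal blood replicate 4 and 100% without post-TBI blood replicate 3, which left 23 and 2 calls in place of 33. The differences of 7 genes lay between -0.26 and 0.34. Siglech is among them at 0.00, a value fixed by the lowest possible level on every blood array, so it could not be called in this fit. P2ry12 and P2ry13 stood apart from these, with an unadjusted p of 0.000883 and 0.00186. Their arrays did not overlap, as for 9.26% of all features, and 3.00% of all features had an unadjusted p under 0.05 in the higher direction.

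P2ry12 was higher after TBI by 1.82 ± 0.44 (3.52-fold, 95% interval 0.88 to 2.75, limma adjusted p = 0.187) and ranked 32 from the top among the differences of all features. The difference was 0.79 to 2.81 within the 3 slides and positive on each, and the adjusted p was 0.0713 with slide as a block. P2ry13 was higher by 1.07 ± 0.28 (2.10-fold, 95% interval 0.47 to 1.68, limma adjusted p = 0.266), with 0.94 to 1.32 within slides. Without 1 array the difference ran from 1.33 to 2.10 for P2ry12 and from 0.85 to 1.23 for P2ry13, and neither was called in any of these fits. The difference of P2ry12 was 0.76 after normexp background correction and 1.04 in the authors' deposited table.

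Markers of other blood cells were uneven over the same arrays. Platelets carry P2ry12 as their main ADP receptor. The summed level of 7 measured platelet markers was 17.2, 18.1 and 29.0 in post-TBI blood and 4.62, 14.4 and 15.0 in normal blood, with none of the 7 called and a median difference of 1.16. Post-TBI replicate 4 was the highest for both this sum and P2ry12, and normal replicate 2 the lowest for both. Within each group the other arrays ran in the opposite order. Post-TBI replicates 1 and 3 had sums of 17.2 and 18.1 and P2ry12 at -1.87 and -1.92. Normal replicates 3 and 4 had sums of 14.4 and 15.0 and P2ry12 at -2.65 and -3.26 (the last not well above background). Red cell markers summed to 65.1, 75.4 and 123 after TBI and to 8.16, 70.8 and 32.3 in normal mice. P2ry13 did not follow the platelet order within post-TBI blood, where replicate 4 was its lowest array. The part of platelets in the P2ry12 and P2ry13 values was not tested.

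**Figure D5:**
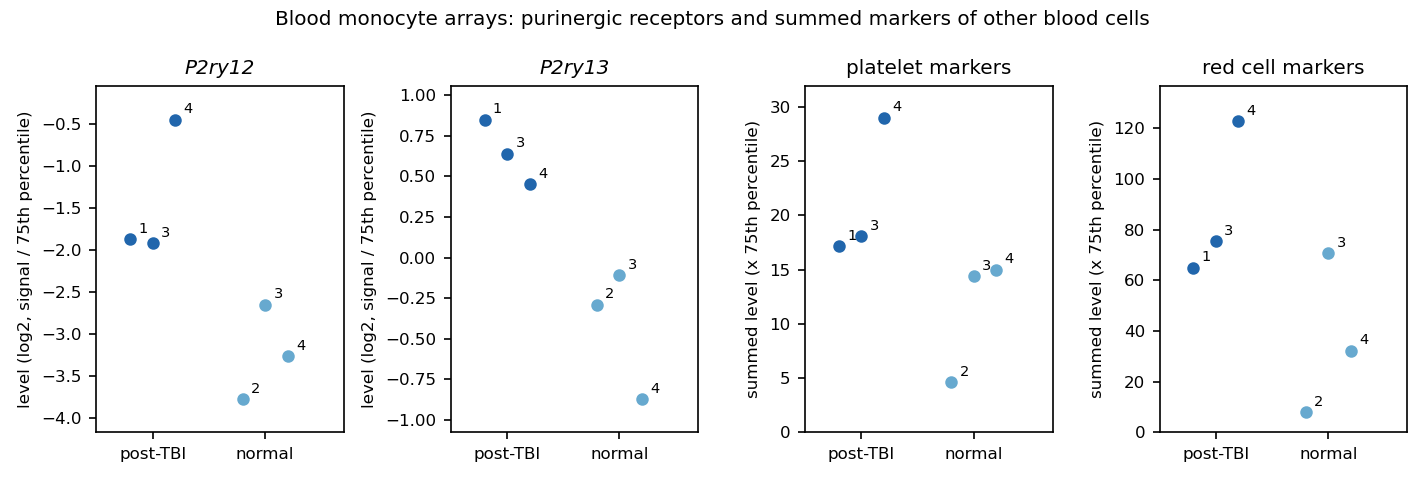
P2ry12 and P2ry13 (log2 level) and the summed levels of platelet and red cell markers (linear, in multiples of the 75th percentile) on the 6 blood arrays. Points are arrays with their replicate number beside them. Post-TBI replicate 4 is highest for P2ry12 (-0.45), platelet markers (29.0) and red cell markers (123), and lowest of its group for P2ry13 (0.45).

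The platelet sums in brain, 7.38 to 13.3 in Arg1+ and 2.43 to 4.18 in Arg1- cells, were below all 3 post-TBI blood arrays. Of the 7 markers, 6 were called lower in Arg1+ and 7 in Arg1- cells against post-TBI blood (all features: 20% and 16.4%). All 3 measured red cell markers and all 5 B cell markers were called lower there too, in both brain groups. P2ry12 was called in neither comparison, and the part of any of these cells in its values was not tested.

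The features closest to each gene over the 14 arrays were listed by Pearson correlation of log2 level, as a description: the arrays share slides and the brain-blood contrast, which sets most of these values. Tmem119 was closest to Ms4a7, Olfml3 and Fcrls (each 0.995). Olfml3 was closest to Mertk (0.996), Bhlhe41 and Slco2b1 (each 0.995), and Fcrls to the chemokine gene Ccl7 (0.996), Sdc4 and Ccl12 (each 0.995). Sall1 was closest to the arginine transporter Slc7a2 and Cables1 (each 0.985) and Siglech, well above background on 7 arrays, to Sall3 (0.980). Trem2 was closest to Hebp1 (0.984) and P2ry13 to Cttnbp2nl (0.974). P2ry12 was closest to Adgrg1 (0.934), another receptor of the microglia list, which differed by 0.60 and 0.07 from post-TBI blood in Arg1+ and Arg1- cells and by 1.96 between post-TBI and normal blood, none of them called. Gpr34 was closest to Plxdc2 (0.921).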

How the data were processed

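Gene expression was measured on 14 one-colour Agilent mouse arrays, after whole-transcriptome amplification of RNA from sorted cells per the labels' protocols. Per the file headers, the deposited scanner files hold the output of Feature Extraction 10.7.3.1, whose processed signal is an intensity after background subtraction and detrending, not scaled between arrays. The authors' deposited table holds log2 values that rank as the median spot signal does (Spearman rho of 1 on every array), with column medians of 6.161 to 6.188. The submitters' processing notes name limma, with no version or model.

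The processed signal was divided by the 75th percentile of its array, raised to a floor of 0.05 and log2 transformed. Outlier spots (200 to 728 per array) were set to missing. Probes with under 2 usable arrays in a group (464) or well above background on under 3 of 14 arrays (13101) were dropped, and the brightest of a gene's remaining probes stood for it. Names came from a RefSeq table of GRCm38.p6, which named 24844 of 41174 probes. The array's own annotation was built on mm9, and only promoter windows carry coordinates here.

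One limma 3.58.1 fit (R 4.3.3, lmFit, eBayes with trend set, leaving 10 residual degrees of freedom) covered all arrays, with two-sided tests adjusted by Benjamini-Hochberg per comparison. It was tested on simulated data. Values after ± are standard errors. Summed marker levels add linear levels, 1 probe a gene. The alternatives were other background corrections, scalings, floors, filters and probe rules, slide and replicate blocks, and leaving out each array. The 9 genes, the gene lists and the rule for naming list members (called genes with the largest brain-blood differences, plus a fixed set) were chosen with earlier results of these data known. Some genes of these lists are not reported here and were left out of the counts. With 3 or 4 arrays a group, precision is limited by their number.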

Additional observations from a re-analysis of the deposited data

How the results depend on the processing

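The count of signature genes called against post-TBI blood was 8 for Arg1+ cells (7 to 8 over the alternatives) and 7 for Arg1- cells (6 to 7), and 0 of 9 were called between post-TBI and normal blood in every setting. Between the brain groups the count was 0, and 1 (Trem2) with the mean of a gene's probes. Of 848 recomputed values of the 9 genes, 22 lost their call, 2 gained it and 25 changed sign, the last all of small differences that were not called. P2ry12 turned to 0.01 in Arg1- cells against blood after normexp correction, and ran from -0.34 to 0.40 there, and from -0.05 to 0.69 in Arg1+ cells, without 1 array. P2ry13 between the brain groups turned to -0.07 with normexp, -0.13 with quantile normalization and -0.08 with the authors' deposited table, and ran from -0.18 to 0.19 without 1 array. In post-TBI against normal blood, Sall1 turned to 0.01 with normexp, with the authors' table and with the replicate block, 0.04 with quantile normalization and 0.35 with a floor of 0.01. Without 1 array it ran from -0.29 to 0.13 there, Tmem119 from -0.03 to 0.18 and Olfml3 from -0.20 to 0.02. Mef2a in Arg1+ cells against blood ran from -0.05 to 0.64, as another probe stood for it once normal blood replicate 2 or 4 was left out. With a floor of 0.01 the Siglech differences from blood were 4.34 and 3.42, as all blood arrays lie at the floor. Normexp moved the median of all features by 0.14 in Arg1+ cells against blood and by 0.12 between the brain groups. Over all features, 1108 were called between the brain groups (503 with normexp, 602 to 1782 without 1 array) and 33 between the blood groups (16 with normexp, 20 with the authors' table, 2 with the replicate block, 2 to 60 without 1 array). The cause of these shifts was not tested.

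Arrays with the same replicate number in different groups did not deviate together (correlations from -0.46 to 0.40, median -0.15, over 18 pairs). Most of these pairs sat on different slides, and pairs on different slides had a median of -0.11 in all. The correlations therefore cannot decide whether the numbers pair the samples. With the replicate number as a block the call of Gpr34 in Arg1+ cells was lost (0.86, adjusted p = 0.0906 in limma) and no other call of the 9 genes changed. Arrays on the same slide correlated at 0.04 to 0.59, and with slide as a block the call of Siglech in Arg1- cells was the only one of the 9 genes lost.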
